A study of Mus musculus with 29 samples.

Results

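RNA of the hypothalamus of adult male mice was compared between 12 and 6 months of age. The comparison took the 3 libraries labelled 12 months and the 3 labelled 6 months, 6 of the 29 libraries of a series that follows this tissue from postnatal day 5 (P5) to 24 months. All libraries are labelled as hypothalamus of C57BL/6 wild-type (WT) male mice that were kept singly under 12 h of light per day, and the tissue was taken near zeitgeber time 6, that is about 6 h after lights on, and put into RNAlater. The 6-month libraries carry the replicate numbers 32, 33 and 34 and the 12-month libraries 26, 27 and 28. In the text, the 3 values of an age stand in that order. The labels do not say that each library came from its own mouse, so a p-value here reflects how these libraries vary, which may be technical. They give no batch either, so that a batch or a dissection shared by the libraries of 1 age and the age itself cannot be told apart.

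The hypothalamus holds neurons that release peptide hormones to the pituitary and blood, neurons that set feeding, sleep and temperature, and the suprachiasmatic nucleus, the brain's main circadian clock. Tanycytes and ciliated ependymal cells line the wall of its ventricle, and the choroid plexus, thalamus, striatum and pituitary lie close by, so that the border of a dissection bears on what is counted. Peptide-secreting cells fold large amounts of protein in the endoplasmic reticulum (ER), where chaperones such as BiP hold unfolded chains and disulfide isomerases join their cysteines.

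Depth was 29806510 to 39783779 gene counts per library at 6 months and 24661631 to 27936518 at 12 months, so that 3 counts made 0.0754 to 0.122 CPM, the count of a gene scaled by the size of its library. Of the peptides that mark this tissue, Avp, Oxt, Pomc, Hcrt, Pmch and Trh had at least 19.7 CPM in each of the 6 libraries. Agrp, Crh and Ghrh, which mark it too, were detected at lower levels, given below. The Y-linked Ddx3y was present at 82.7 to 95.5 CPM. Markers of neighbouring tissue were uneven. The summed level of the 20 choroid plexus markers, all of them detected at both ages, was 1794, 380.3 and 446.6 CPM at 6 months and 344.1, 2775 and 7471 CPM at 12 months. Striatal markers were highest in replicate 32 (6 months), serotonin neuron markers in replicate 34 (6 months), and pituitary and red blood cell markers in replicate 28 (12 months). These libraries are named below beside many of the results that they touch, but not beside all of them.

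No gene passed the threshold. With edgeR's quasi-likelihood test on 16916 genes and Benjamini-Hochberg adjustment, 0 genes (0%) had an adjusted p below 0.05, and the smallest adjusted p was 0.282. At an unadjusted p below 0.05, edgeR found 1548 genes (9.15%), 897 (5.3%) higher and 651 (3.85%) lower at 12 months, and 183 and 53 of these differed at least 2-fold. Of the 1548, 57.9% were higher, and without TMM scaling of the library sizes 76.5% of 1661 were. DESeq2 on the same libraries called 24 of the 14287 genes to which it gave an adjusted p (0.168%), 16 higher and 8 lower, and edgeR gave these 24 genes adjusted p-values of 0.282 to 0.348. The DESeq2 calls depended on single libraries. It called 39 genes without replicate 27 (12 months) and 6 without replicate 28 (12 months), and between 3 and 11 of the 24 remained when 1 of the 6 libraries was left out.

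Because nothing was called by edgeR, genes are described below by their values in the 6 libraries. A gene is said to be higher or lower without overlap where all 3 libraries of 12 months lay above or below all 3 of 6 months, which held for 1167 genes (6.9%) in the higher and 956 (5.65%) in the lower direction. These percentages are the background against which counts in gene lists stand. Without TMM scaling, 1691 of the 16916 genes were higher and 572 lower without overlap. List counts given without TMM scaling stand against those numbers. The median log2 fold change over all tested genes was 0.0046. With 3 libraries per age, the median standard error (SE) of a log2 fold change was 0.11 among the 14625 genes averaging 1 CPM or more. It was 0.086 among the 2307 averaging 100 CPM or more. The genes and gene lists named here were chosen with values of these data known.

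**Figure D1:**
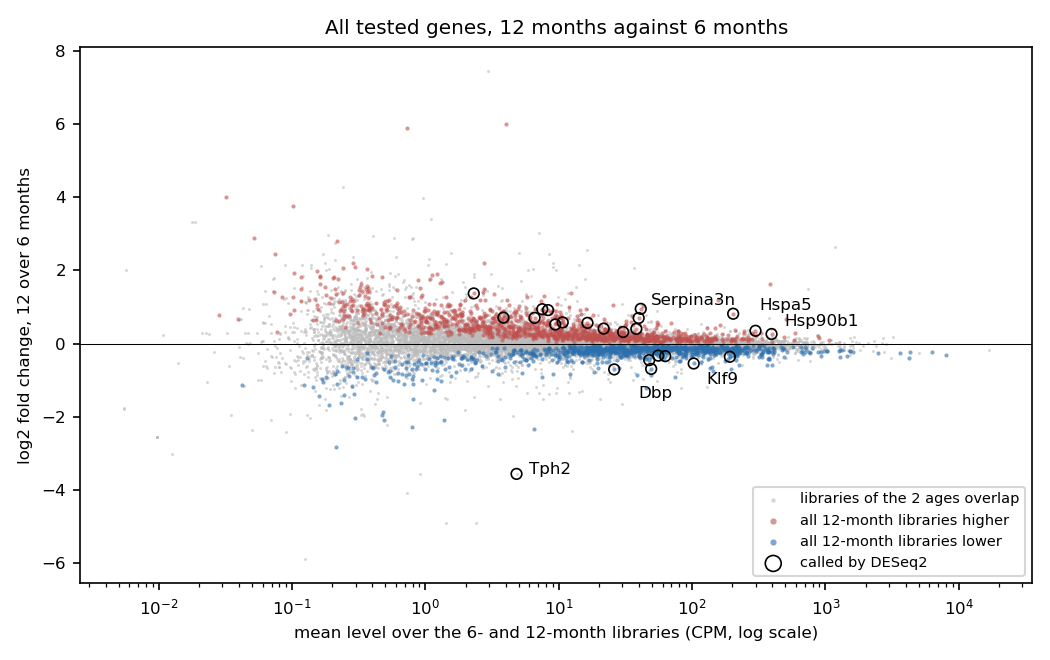
Log2 fold change of 12 over 6 months (vertical axis) against the mean level over the 6 libraries in CPM (horizontal log axis) for the 16916 tested genes. Red and blue points are the 1167 and 956 genes without overlap between ages, grey points overlap, and open circles mark the 24 genes that DESeq2 called.

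Part of the protein-folding genes of the ER were higher without overlap at 12 months. In the ER stress list, 9 of 25 tested members were higher without overlap and 1, Sesn2, was lower, against 6.9% and 5.65% of all genes. The 9 were Hspa5, Hsp90b1, Calr, Pdia3, Pdia4, Pdia6, Dnajc3, Manf and Hyou1, which encode luminal chaperones, disulfide isomerases and their helpers. The median log2 fold change of the list was 0.050, and 15 of the 25 members were positive and 10 negative. Canx, Creld2, Dnajb9, Dnajb11 and Sdf2l1, which also encode folding factors, overlapped between the ages. Without TMM scaling, 12 members were higher and 1 lower.

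Hsp90b1, the ER member of the HSP90 family (chr10:86690209-86705509, GRCm38, minus strand), was at 358, 358 and 360 CPM at 6 months and at 426, 438 and 426 CPM at 12 months. The libraries of each age lay close together and the ages did not overlap, with a log2 fold change of 0.26 ± 0.05 (SE), the smallest adjusted p of DESeq2 (6.93e-05) and an edgeR adjusted p of 0.282, which ran from 0.0907 to 1 over the edgeR alternatives. Hspa5, which encodes BiP (chr2:34771970-34777547, plus strand), was at 269, 269 and 250 CPM and then at 322, 333 and 349 CPM. Its log2 fold change was 0.35 ± 0.08, with an edgeR adjusted p of 0.329 (0.255 to 1 over the alternatives). Both genes kept nearly the same size whichever library was left out, between 0.25 and 0.27 for Hsp90b1 and between 0.32 and 0.37 for Hspa5.

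The disulfide isomerase Pdia4 was at 33.6, 33 and 32 CPM at 6 months and at 41.7, 38.3 and 50.3 CPM at 12 months. Pdia6 was at 115, 113 and 106 CPM and then at 134, 128 and 138 CPM, and Pdia3 at 202, 197 and 200 CPM and then at 214, 234 and 244 CPM. In these isomerases the 12-month libraries were the 3 highest, with log2 fold changes of 0.40, 0.26 and 0.21. Calreticulin (Calr), a calcium-binding lectin chaperone, was at 302, 275 and 257 CPM against 315, 320 and 333 CPM. The co-chaperone Dnajc3 was at 80.5, 78.5 and 79.6 CPM against 83.8, 93.8 and 117 CPM, and the secreted ER protein Manf at 48.5, 45 and 43.3 CPM against 50.6, 52.7 and 59.8 CPM. Hyou1, a large chaperone of the same compartment, was at 140, 141 and 134 CPM against 144, 156 and 153 CPM. Replicate 28 (12 months) was the highest for Dnajc3 and Manf, and without it their log2 fold changes were 0.16 and 0.18 in place of 0.30 and 0.25.

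DESeq2 also called Sec24d and Ost4, which were picked out after their values were seen. Sec24d, a coat subunit of vesicles that leave the ER, was at 17.1, 20.6 and 18.4 CPM at 6 months and at 24.3, 25.3 and 24.6 CPM at 12 months. Ost4, a small subunit of the oligosaccharyltransferase that glycosylates proteins in the ER, was at 15.4, 13 and 11.3 CPM and then at 19.3, 20.3 and 19.2 CPM. Both were higher without overlap, with log2 fold changes of 0.41 ± 0.09 and 0.57 ± 0.13 and edgeR adjusted p-values of 0.329.

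The transcription factor arm of ER stress did not separate the ages. Atf4, the translation-controlled factor, was at 107, 107 and 108 CPM against 96.3, 111 and 110 CPM. Ddit3, which encodes the death-linked factor CHOP, was at 26.1, 23.6 and 24.8 CPM against 22.2, 23.5 and 24.5 CPM, and Xbp1 at 81.1, 79.4 and 73 CPM against 78.6, 87.9 and 92 CPM. The 2 ages overlapped in all of these. Chac1, a glutathione-degrading enzyme downstream of Atf4, had a log2 fold change of -0.38 ± 0.12 and overlapped in 1 library (6.75, 8.71 and 6.75 CPM at 12 months against 8.53, 10.7 and 9.69 CPM at 6 months). Sesn2 was at 15.1, 14.6 and 15 CPM against 12, 14.5 and 13 CPM.

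The promoters of 5 of the folding genes are shown because they hold the ER stress element, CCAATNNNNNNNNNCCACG, the site bound by ATF6 with NF-Y. The sequences are the 250 bases before the gene start in RefSeq (GRCm38.p6), read 5′ to 3′ on the strand of the gene, with the fixed letters of the element in capitals on whichever strand they lie. Gene starts here are those of RefSeq, which differ from the GENCODE bounds given for Hsp90b1 and Hspa5 above, so that part of each of these windows lies inside the GENCODE gene. The regions are chr2:34771840-34772089 (plus) for Hspa5, chr10:86705445-86705694 (minus) for Hsp90b1, chr8:84846932-84847181 (minus) for Calr, chr12:17266339-17266588 (plus) for Pdia6 and chr14:118937682-118937931 (plus) for Dnajc3.
Hspa5: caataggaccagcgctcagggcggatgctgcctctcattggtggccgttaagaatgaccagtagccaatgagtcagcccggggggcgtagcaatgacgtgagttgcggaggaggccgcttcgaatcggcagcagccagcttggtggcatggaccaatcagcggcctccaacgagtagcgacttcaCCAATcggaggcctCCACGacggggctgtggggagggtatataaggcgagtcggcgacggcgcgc
Hsp90b1: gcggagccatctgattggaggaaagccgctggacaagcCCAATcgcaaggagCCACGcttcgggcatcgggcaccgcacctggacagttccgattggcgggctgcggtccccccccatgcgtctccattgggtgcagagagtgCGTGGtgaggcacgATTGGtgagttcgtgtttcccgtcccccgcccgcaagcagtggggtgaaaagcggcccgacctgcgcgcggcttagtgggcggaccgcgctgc
Calr: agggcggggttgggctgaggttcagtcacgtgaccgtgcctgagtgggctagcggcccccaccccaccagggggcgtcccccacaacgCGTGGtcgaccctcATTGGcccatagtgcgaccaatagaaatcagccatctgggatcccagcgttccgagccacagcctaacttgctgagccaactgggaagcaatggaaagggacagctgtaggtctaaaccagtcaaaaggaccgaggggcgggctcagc
Pdia6: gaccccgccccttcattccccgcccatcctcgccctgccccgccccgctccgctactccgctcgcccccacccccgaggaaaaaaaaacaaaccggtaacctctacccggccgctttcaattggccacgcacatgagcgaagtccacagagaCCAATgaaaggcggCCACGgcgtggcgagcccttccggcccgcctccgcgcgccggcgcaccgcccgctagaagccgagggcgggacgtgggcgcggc
Dnajc3: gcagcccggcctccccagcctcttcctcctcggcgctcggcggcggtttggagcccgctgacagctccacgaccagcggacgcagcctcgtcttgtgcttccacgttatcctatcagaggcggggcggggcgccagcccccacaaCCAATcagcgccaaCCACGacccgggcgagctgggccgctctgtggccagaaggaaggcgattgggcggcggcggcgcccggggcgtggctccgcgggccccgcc

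Hsp90b1 holds 2 copies, which begin 212 and 107 bases before the RefSeq gene start, and Hspa5 holds 1 at 65 bases. Searched on both strands, the element was in 37 of 32851 RefSeq promoters of the same length (0.113%), or in the promoters of 35 of 27025 genes (0.13%). Of the 25 ER stress members tested, 22 had a promoter in the table and 7 of these held the element: the 5 printed, whose levels were higher without overlap, and Canx and Creld2, which overlapped. Creld2 was at 12.7, 13.6 and 12.6 CPM against 14.3, 11.3 and 15.4 CPM. Pdia3 and Pdia4 were higher without the element in this window. A match of letters is a description of the sequence, and binding was not measured.

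**Figure D2:**
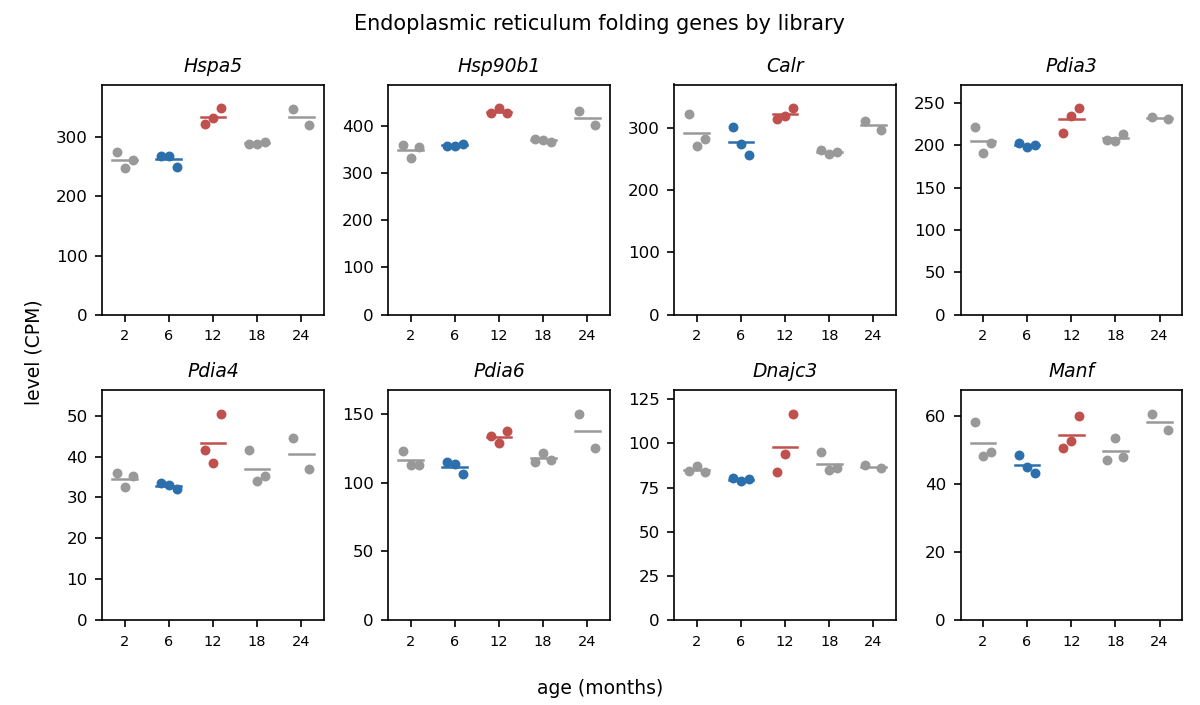
Level in CPM (vertical axes, from 0) of 8 ER folding genes by age in months (horizontal axes), 1 point per library with a bar at the mean, 6 months in blue, 12 months in red and other adult ages in grey. The 12-month points of Hsp90b1 (426 to 438 CPM) lie above all those of 2, 6 and 18 months.

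At other adult ages these chaperones did not follow a single slope. Hsp90b1 was at 332 to 360 CPM at 2 months, 365 to 372 CPM at 18 months and 402 to 430 CPM in the 2 usable libraries of 24 months, so that the 12-month libraries were above those of 18 months. Hspa5 was at 248 to 276, 288 to 292 and 320 to 348 CPM at these ages. In 18 against 2 months, which shares no library with the present comparison, the log2 fold changes were 0.08 and 0.15.

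In the list of heat shock proteins and chaperones, 9 of 33 tested members were higher without overlap and 0 lower, with a median log2 fold change of 0.071, which was 0.041 without replicate 27 (12 months). Without TMM scaling 15 were higher. Of the 9, 3 (Hspa5, Hsp90b1 and Dnajc3) are ER genes counted above. The mitochondrial co-chaperonin Hspe1 was at 77.9, 77 and 72.3 CPM against 84.8, 87.2 and 84.6 CPM. Stip1, which joins HSP70 to HSP90, was at 240, 232 and 263 CPM against 273, 291 and 268 CPM, and the small heat shock protein Hspb1 at 10.5, 10.4 and 11.7 CPM against 13.5, 12.9 and 18.8 CPM. Cct3, Cct4 and Cct5, subunits of the cytosolic chaperonin, were the other members, with log2 fold changes of 0.12, 0.09 and 0.12.

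Several clock output genes were lower at 12 months. In the list of core clock and clock output genes, 6 of 26 tested members were lower without overlap and 0 higher, with a median log2 fold change of -0.13, which was -0.034 without replicate 28 (12 months). Without TMM scaling 5 were lower and 2 higher. The 6 were Dbp, Ciart, Tef, Nr1d2, Per1 and Usp2, which are known outputs or repressors of the clock driven by CLOCK and BMAL1.

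Dbp, a transcription factor that carries the clock signal to its target genes (chr7:45705088-45710203, plus strand), was at 63.7, 55.9 and 63.1 CPM at 6 months and at 39.1, 35.3 and 38.7 CPM at 12 months. The ages were well apart, with a log2 fold change of -0.69 ± 0.17, an edgeR adjusted p of 0.329 (0.262 to 1 over the alternatives) and a DESeq2 adjusted p of 0.0497. The 12-month libraries were the lowest of all adult ages: Dbp was at 54.4 to 76.5 CPM at 2 months, 52.7 to 61.7 CPM at 18 months and 43 to 46.8 CPM at 24 months. Its relative Tef was at 299, 291 and 279 CPM against 266, 263 and 248 CPM, and their relative Hlf at 128, 166 and 199 CPM against 129, 170 and 105 CPM, with overlap. Ciart, a repressor of CLOCK and BMAL1, was at 13.7, 12.7 and 13.9 CPM against 10.6, 10.1 and 8.28 CPM. Nr1d2, which encodes REV-ERB beta, was at 130, 136 and 144 CPM against 121, 122 and 121 CPM.

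Per1, a core repressor that is also induced by light and steroids, was at 68.4, 68.1 and 62.1 CPM at 6 months and at 56.7, 55.2 and 46.2 CPM at 12 months. The deubiquitinase Usp2 was at 37.3, 35.6 and 38.4 CPM against 28.6, 31.4 and 34.1 CPM. Nr1d1, which encodes REV-ERB alpha, overlapped in 1 library (61.2, 69.3 and 76.7 CPM against 65.9, 56.2 and 52 CPM), with a log2 fold change of -0.25 ± 0.10. Arntl, the gene of BMAL1, which peaks opposite to these outputs, was at 18, 22.3 and 20.4 CPM against 24, 26.1 and 20.6 CPM, a log2 fold change of 0.22 ± 0.12 with overlap. Per2 overlapped, at 25.9, 26.1 and 22.4 CPM against 25.8, 22.7 and 18.8 CPM. Bhlhe41, a repressor that competes for E-boxes, overlapped too, at 70.7, 65.4 and 79.4 CPM against 56.3, 63.6 and 67.3 CPM.

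The promoter of Ciart (chr3:95882229-95882478, minus strand, RefSeq GRCm38.p6) is shown because it holds 3 copies of the E-box that CLOCK and BMAL1 bind, CACGTG, here in capitals.
Ciart: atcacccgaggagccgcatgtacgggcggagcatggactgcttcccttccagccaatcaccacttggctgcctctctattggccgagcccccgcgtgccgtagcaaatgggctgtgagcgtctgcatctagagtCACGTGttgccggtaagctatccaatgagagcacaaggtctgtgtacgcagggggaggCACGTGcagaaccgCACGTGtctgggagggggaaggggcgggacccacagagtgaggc
The copies begin 116, 58 and 44 bases before the gene start. This shorter motif was in 6.02% of the 32851 promoters and in the promoters of 6.86% of the 27025 genes. It was in 5 of the 21 clock list members with a promoter, of which 3 were lower without overlap (Per1, Tef and Ciart) and 2 overlapped (Cry1 and Bhlhe41). Dbp, Nr1d2 and Usp2 were lower without the E-box in this window. Binding was not measured here either.

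Some steroid-responsive and activity genes were also lower. Klf9, a transcription factor induced by glucocorticoids and thyroid hormone (chr19:23141226-23168134, plus strand), was at 115, 122 and 129 CPM at 6 months and at 74.2, 95.2 and 81.5 CPM at 12 months. Its log2 fold change was -0.54 ± 0.11, with an edgeR adjusted p of 0.282 (0.216 to 1 over the alternatives) and a DESeq2 adjusted p of 0.0132. Tsc22d3, which encodes the glucocorticoid-induced leucine zipper, was at 89.2, 86.3 and 105 CPM against 56.1, 70.2 and 76.1 CPM. Hif3a, another target of this receptor, had a log2 fold change of -0.64 and no overlap. Fkbp5, the feedback co-chaperone of the receptor, was at 29.3, 31.7 and 26 CPM against 23.4, 28.8 and 24 CPM and overlapped, as did the kinase Sgk1 at 58.6, 46.6 and 49.7 CPM against 29.5, 38.3 and 48.5 CPM. In the glucocorticoid list, 4 of 25 tested members were lower without overlap and 2 (Lcn2 and Tat) higher, with a median of -0.19, which was -0.067 without replicate 34 (6 months) and -0.13 without replicate 26 (12 months). In the thyroid hormone list, 2 of 19 (Klf9 and Dio2) were lower and 1 (Slc16a10) higher.

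Immediate early genes, which neurons transcribe within minutes of firing, had a median log2 fold change of -0.26 (-0.17 without replicate 26 of 12 months), with 6 of 28 tested members lower without overlap and 2 (Fosl2 and Nr4a2) higher. Arc, a synaptic capsid-like protein (chr15:74669083-74672570, minus strand), was at 39.6, 30.7 and 26.3 CPM at 6 months and at 15.3, 22.5 and 21.7 CPM at 12 months, a log2 fold change of -0.70 ± 0.17 with an edgeR adjusted p of 0.329 (0.219 to 1 over the alternatives) and a DESeq2 adjusted p of 0.0497. The zinc finger factor Egr1 was at 47.3, 49.4 and 52.6 CPM against 14.7, 37.1 and 30.0 CPM, and Egr2 at 1.1, 0.724 and 0.556 CPM against 0.170, 0.155 and 0.235 CPM. Both separated the ages, and Egr1 was lowest in replicate 26 (12 months), without which its log2 fold change was -0.58 in place of -0.87. Egr2 was near the limit of counting at 12 months. Replicate 32 (6 months) was the highest library for Arc and Egr2. Without it their log2 fold changes were -0.53 and -1.76 in place of -0.70 and -2.08. Fos, the archetype of the class, overlapped, at 6.60, 13.1 and 20.1 CPM against 4.01, 13.5 and 9.18 CPM. Egr3 was at 19.5, 10.9 and 3.44 CPM against 3.43, 4.88 and 3.65 CPM, and Egr4 at 19.4, 8.29 and 2.98 CPM against 1.93, 6.04 and 4.24 CPM. The 6-month values of both were spread widely, with replicate 32, which also held the highest striatal markers, at the top.

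**Figure D3:**
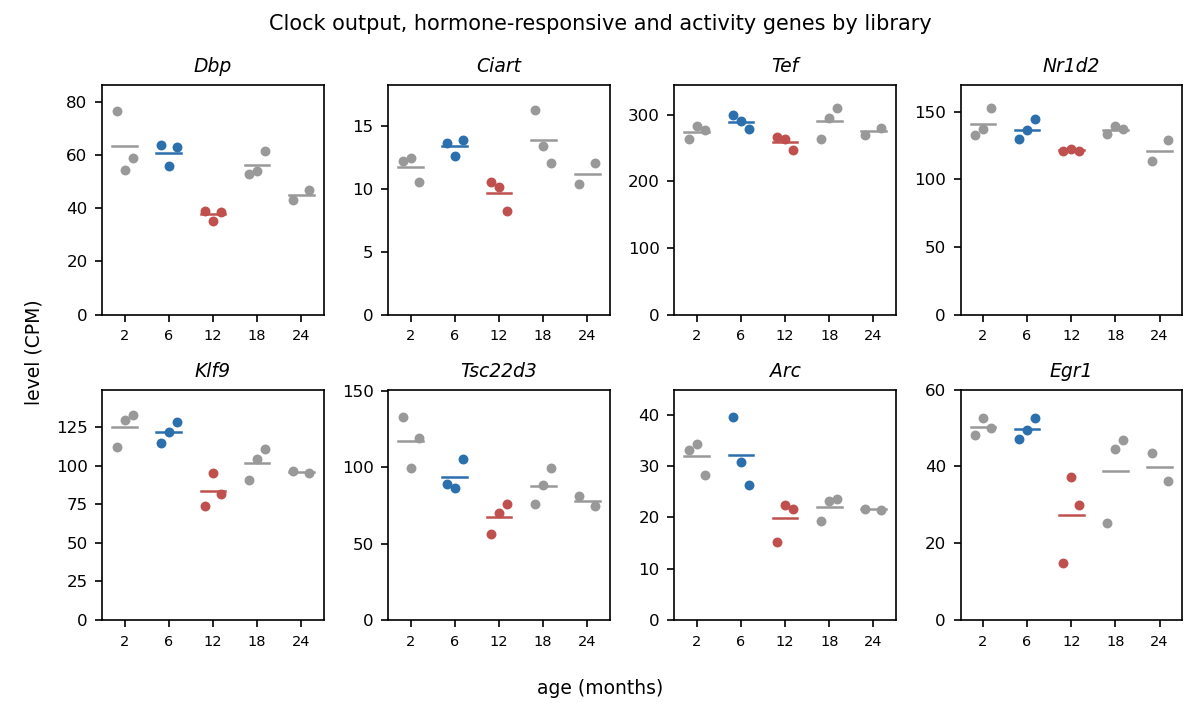
Level in CPM (vertical axes, from 0) of 8 clock output, hormone-responsive and activity genes by age in months, 1 point per library with a bar at the mean, 6 months in blue, 12 months in red. The 12-month points of Dbp (35.3 to 39.1 CPM) lie below those of every other adult age.

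Secreted hypothalamic peptides were on balance higher at 12 months. In the neuropeptide list, 11 of 38 tested members were higher without overlap and 1, Vgf, was lower, with a median log2 fold change of 0.19 that stayed between 0.13 and 0.22 with 1 library left out. Vasopressin (Avp, chr2:130580620-130582554, minus strand), the antidiuretic hormone, was at 263, 166 and 137 CPM at 6 months and at 399, 313 and 1044 CPM at 12 months. Replicate 28 was far above the others, and the log2 fold change of 1.63 ± 0.54 (edgeR adjusted p 0.381, 0.301 to 1 over the alternatives) was 0.92 without it. Its neighbour oxytocin (Oxt) was at 70.1, 132 and 83.7 CPM against 189, 178 and 284 CPM. Both peptides were far lower at 2 months, Avp at 11.1 to 56.9 CPM and Oxt at 3.41 to 22.3 CPM, so that the 6-month levels lie between those of 2 and 12 months.

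Melanin-concentrating hormone (Pmch), a lateral hypothalamic sleep and feeding peptide, was at 32.1, 32.7 and 19.7 CPM at 6 months and at 60.9, 63.4 and 47 CPM at 12 months. In this gene replicate 28 was the lowest of its age, and the log2 fold change was 1.02 ± 0.34 (edgeR adjusted p 0.385, 0.304 to 1 over the alternatives). Orexin (Hcrt), made in the same area, was at 82.2, 86.2 and 70.3 CPM against 62.5, 74.8 and 58.2 CPM and overlapped. The orexigenic peptide Qrfp was at 0.9, 1.35 and 0.720 CPM against 1.46, 1.90 and 2.71 CPM. Growth hormone-releasing hormone (Ghrh) was at 1.85, 2.76 and 1.67 CPM against 3.19, 3.37 and 5.57 CPM, and thyrotropin-releasing hormone (Trh) at 36.2, 57.9 and 42.5 CPM against 58.1, 78 and 60.5 CPM. Both releasing hormones were higher without overlap, Trh by a narrow margin. Galanin (Gal) was at 16, 20.1 and 12.9 CPM against 22.3, 23.3 and 22.5 CPM.

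PACAP (Adcyap1), a peptide of the ventromedial nucleus and of light input, was at 31.5, 48.6 and 49.4 CPM at 6 months and at 56.9, 63.7 and 75.7 CPM at 12 months. Pcsk1, the convertase that cuts peptide precursors, was at 33.7, 33.4 and 29.8 CPM against 42.5, 45 and 53.6 CPM. The granin Vgf, by contrast, had a log2 fold change of -0.23. Hdc, the histamine-synthesizing enzyme of the tuberomammillary nucleus, was at 17.6, 17.5 and 14.5 CPM against 29.7, 23.6 and 49.4 CPM, a log2 fold change of 1.05 ± 0.31 that was 0.69 without replicate 28 (12 months).

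The arcuate feeding peptides overlapped between the ages. Pomc, the precursor of alpha-MSH, was at 32.5, 22.9 and 21.1 CPM against 34.6, 30.0 and 66.8 CPM. Pomc is also a pituitary gene and was highest in replicate 28, where the pituitary markers were highest, and its log2 fold change of 0.77 was 0.34 without that library. Agrp, its antagonist, was at 2.95, 2.01 and 1.57 CPM against 3.50, 2.94 and 3.41 CPM. Npy was at 21.4, 12.2 and 9.65 CPM against 14.1, 10.5 and 17.5 CPM, and Cartpt at 45.1, 38.9 and 68.8 CPM against 54.2, 57.3 and 60.0 CPM, with no separation in either. The leptin receptor Lepr was at 3.28, 2.27 and 5.24 CPM against 4.96, 5.46 and 9.77 CPM, where replicate 28 with its choroid plexus signal was the highest, and the melanocortin receptor Mc4r at 4.03, 3.62 and 2.52 CPM against 2.68, 2.48 and 2.90 CPM. In the energy balance receptor list, 2 of 24 (Ghsr and Bdnf) were higher without overlap and 0 lower.

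Crh, Sst, Gnrh1, Kiss1 and Tac2, peptides of the stress, growth and reproductive axes, overlapped between the ages. In the list of releasing hormones and their receptors, which holds Ghrh and Trh, 4 of 17 were higher and 1 lower without overlap, with a median of 0.056 that was 0.23 without replicate 28 and -0.037 without replicate 27 (12 months). Crh, the releasing hormone of the stress axis, was at 5.53, 6.35 and 4.22 CPM against 6.75, 5.85 and 3.02 CPM, and somatostatin (Sst) at 152, 114 and 88.3 CPM against 101, 96.3 and 111 CPM. Gnrh1 was at 3.25, 2.17 and 0.687 CPM against 2.58, 1.47 and 3.49 CPM, and Kiss1 at 0.850, 0.625 and 0.393 CPM against 0.713, 0.503 and 0.628 CPM. Neurokinin B (Tac2) overlapped at 19.4, 28.7 and 14.8 CPM against 35.2, 38.8 and 21.3 CPM, with a log2 fold change of 0.60 ± 0.25. The estrogen receptor Esr1 was at 7.95, 8.06 and 7.43 CPM against 8.21, 11.2 and 8.04 CPM. In the reproductive list, 0 of 21 were higher and 1 lower without overlap.

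Transcription factors that mark hypothalamic nuclei shared the direction of the peptides: 8 of 32 tested members were higher without overlap and 1 (Nkx2-2) lower, with a median log2 fold change of 0.23, which was 0.11 without replicate 28 (12 months) and 0.33 without replicate 34 (6 months). Sim1, needed for paraventricular and supraoptic neurons, was at 4.53, 7.67 and 7.07 CPM against 9.40, 9.41 and 11.5 CPM. Tbx3, an arcuate factor, was at 6.58, 6.48 and 6.58 CPM against 10.1, 8.83 and 10.4 CPM. Nkx2-4 was at 1.45, 1.74 and 1.54 CPM against 2.68, 2.17 and 3.65 CPM. In whole tissue, more cells of a type and more RNA per cell cannot be told apart, and a different share of the nucleus in the dissected block was not tested.

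Some genes of synaptic release and fast firing were lower. In the synaptic vesicle list, 9 of 28 tested members were lower without overlap and 0 higher, with a median log2 fold change of -0.14, and without TMM scaling 7 were lower and 1 higher. Vamp2, the vesicle SNARE, was at 809, 846 and 790 CPM at 6 months and at 672, 764 and 660 CPM at 12 months. Synaptophysin (Syp), a vesicle membrane protein, was at 1363, 1424 and 1436 CPM against 1224, 1338 and 1151 CPM. Both separated the ages by margins smaller than the spread within 12 months. Syn1, which tethers vesicles, overlapped in 1 library (292, 314 and 348 CPM against 267, 295 and 251 CPM), and the plasma membrane SNARE Snap25 overlapped at 1478, 1561 and 2038 CPM against 1210, 1488 and 1410 CPM. Syt3, a calcium sensor called by DESeq2, was at 62.4, 57.6 and 66 CPM against 51.1, 45 and 52 CPM, a log2 fold change of -0.33 ± 0.08 with an edgeR adjusted p of 0.329.

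Genes of GABA synthesis and packaging were highest in a single library. Gad1, which makes GABA, was at 596, 396 and 317 CPM at 6 months and at 274, 281 and 311 CPM at 12 months, and its vesicular transporter Slc32a1 at 358, 248 and 209 CPM against 190, 174 and 180 CPM. Complexin 2 (Cplx2), a clamp on vesicle fusion, was at 557, 458 and 425 CPM against 325, 302 and 333 CPM. Replicate 32, the library with the highest striatal markers, was at the top of all 3 genes. Without it the log2 fold changes of Gad1 and Slc32a1 were -0.30 and -0.33 in place of -0.60 and -0.58, and that of Cplx2 was -0.46 in place of -0.59. Complexin 1 (Cplx1) overlapped, at 932, 696 and 1074 CPM against 549, 611 and 772 CPM.

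In the ion channel lists, 5 of 39 potassium channels and 3 of 33 sodium and calcium channels were lower without overlap, against 0 and 1 (Hcn3) higher, with medians of -0.11 and -0.076. The median of the sodium and calcium channels was 0.038 without replicate 28 (12 months), -0.14 without replicate 26 (12 months) and -0.020 without replicate 33 (6 months). Kcna1, a channel that limits repetitive firing, was at 156, 126 and 222 CPM against 93.6, 113 and 110 CPM. The sodium channel subunit Scn4b was at 117, 54.9 and 172 CPM against 38.3, 51.5 and 58.4 CPM. Replicate 34 was the highest in both, and without it the log2 fold changes were -0.42 and -0.80 in place of -0.67 and -1.21. Glutamate and GABA receptor subunits had 3 of 38 lower, among them Gria3 and Grin1, and 0 higher, a share near the background of 5.65% in the lower direction.

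Neurofilaments, the axon skeleton of large neurons, gave the same arrangement. In their list, which also holds calcium-binding proteins, 5 of 19 tested members were lower and 2 higher without overlap, with a median of -0.053. In the perineuronal net list 2 of 21 were lower and 1 higher, with a median of -0.092. Nefm was at 205, 194 and 326 CPM against 133, 160 and 158 CPM, Nefh at 133, 129 and 247 CPM against 87.7, 122 and 120 CPM and Nefl at 368, 355 and 579 CPM against 298, 338 and 338 CPM. All 3 were lower without overlap, and without replicate 34 the log2 fold changes were -0.41, -0.26 and -0.15 in place of -0.69, -0.63 and -0.42. The fast release sensor Syt2 was at 49.4, 41.5 and 98.7 CPM against 33.4, 32.3 and 39 CPM, and the perineuronal net link protein Hapln1 at 9.95, 6.88 and 12.8 CPM against 4.55, 5.77 and 5.34 CPM. Replicate 34 also held Tph2, the serotonin-synthesizing enzyme of the raphe, at 24.7 CPM against 1.43 and 0.560 CPM in the other 6-month libraries and 0.577, 0.968 and 0.706 CPM at 12 months. Tph2 overlapped between the ages although DESeq2 called it, and its log2 fold change of -3.56 was -0.43 without that library. The serotonin transporter Slc6a4 was at 0.425, 0.0987 and 13.3 CPM against 0.0339, 0.194 and 0.235 CPM, and Fev, the factor of serotonin neurons, at 0.300, 0.296 and 1.67 CPM against 0.136, 0.194 and 0.275 CPM. The part of this marker signal in the neurofilament and channel differences was not tested beyond the values without the library.

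The reactive astrocyte list had a median log2 fold change of 0.40, with 26 of 28 tested members positive, 5 higher without overlap and 0 lower, but the median was 0.080 without replicate 28 (12 months). Serpina3n, a secreted protease inhibitor of reactive astrocytes (chr12:104406729-104414329, plus strand), was at 33, 30.1 and 27.7 CPM at 6 months and at 46.2, 45.8 and 55.5 CPM at 12 months. It was among the clearest single genes, with a log2 fold change of 0.70 ± 0.13 that stayed at 0.61 without replicate 28, an edgeR adjusted p of 0.282 (0.0994 to 1 over the alternatives) and a DESeq2 adjusted p of 0.00324. It was at 21.1 to 22.6 CPM at 2 months, 54.5 to 61.7 CPM at 18 months and 52.1 to 59.7 CPM at 24 months, so that its levels at 12 months lay between those of 6 and 18 months apart from 1 library.

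Gfap, the intermediate filament of astrocytes, was at 383, 202 and 281 CPM at 6 months and at 324, 225 and 856 CPM at 12 months. Its log2 fold change of 0.70 rested on replicate 28, without which it was -0.070. Vim, a filament of astrocytes, tanycytes and vessels, followed the same pattern, at 44.7, 38.4 and 48.4 CPM against 47.4, 40.7 and 85.8 CPM. The hyaluronan receptor Cd44 was higher without overlap, at 5.68, 6.35 and 6.61 CPM against 8.59, 6.74 and 12.2 CPM. Of the homeostatic astrocyte list, 1 of 24 members was higher and 2 lower, and the glutamate transporter Slc1a2 was at 1742, 1592 and 1567 CPM against 1388, 1507 and 1327 CPM.

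Many genes of the ventricle lining were higher. In the tanycyte and ependyma list, 13 of 26 tested members were higher without overlap and 1, Dio2, was lower, with a median log2 fold change of 0.63, which was 0.40 without replicate 28 (12 months). Rarres2, the chemerin precursor of tanycytes, was at 6.60, 6.02 and 3.50 CPM against 10.6, 8.09 and 11.3 CPM. Rax, a tanycyte transcription factor, was at 1.43, 0.955 and 1.08 CPM against 2.27, 1.55 and 2.67 CPM, and Gpr50, an orphan receptor of tanycytes, at 5.40, 5.53 and 4.55 CPM against 13.2, 7.74 and 8.12 CPM. For Gpr50 replicate 26 (12 months) was the highest library. Scn7a, a sodium-sensing channel of the circumventricular organs, was at 14.3, 13.6 and 11 CPM against 21.6, 16 and 25.9 CPM.

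Among genes of motile cilia, Ccdc153 was at 18.3, 20.9 and 11.4 CPM against 28.8, 23.2 and 28.1 CPM. Tmem212 was at 7.33, 7.47 and 3.76 CPM against 10.2, 10.2 and 13.4 CPM, and the axonemal dynein Dnah5 at 7.05, 9.64 and 7.07 CPM against 16.2, 11 and 11.7 CPM. Spef2 and Cfap126, which build the ciliary axoneme, were higher without overlap too, with log2 fold changes of 0.76 and 0.59. Further ciliary genes, outside the list, were called by DESeq2: Dnajb13, a radial spoke protein, at 1.5, 1.42 and 0.916 CPM against 2.68, 2.71 and 4.59 CPM, and Ift122 of intraflagellar transport at 27.2, 27.5 and 26.5 CPM against 34.8, 31.8 and 34.5 CPM. Dio2, the deiodinase with which tanycytes and astrocytes make active thyroid hormone, was opposite in direction, at 27, 20.8 and 24.8 CPM against 13.1, 15.9 and 16.5 CPM, a log2 fold change of -0.68 ± 0.23. In replicate 26 the choroid plexus sum was 344.1 CPM. The ciliary genes named here were picked as higher without overlap or called by DESeq2. Their place above all 6-month libraries in replicate 26 therefore adds nothing on this point. The share of ventricle wall and of choroid plexus in the dissected blocks was not tested.

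Microglial identity genes differed little. In the homeostatic microglia list, 1 of 24 tested members was higher and 1 lower without overlap, with a median of 0.064 that was -0.017 without replicate 28 (12 months) and -0.010 without replicate 33 (6 months). Aif1, which encodes IBA1, was at 5.30, 4.25 and 4.19 CPM against 5.06, 4.61 and 7.14 CPM, and the purinergic receptor P2ry12 at 30.2, 24.3 and 26 CPM against 22.5, 21.5 and 27.4 CPM. In the disease-associated list, 4 of 30 were higher (Cst7, Clec7a, Cd52 and Lilrb4a) and 1 lower (Lpl). Its median of 0.13 was -0.072 without replicate 28 (12 months). Clec7a, a pattern receptor of activated microglia, was at 0.625, 0.527 and 0.458 CPM against 1.22, 0.774 and 1.96 CPM, and the cathepsin inhibitor Cst7 at 0.175, 0.197 and 0.164 CPM against 0.272, 0.774 and 0.432 CPM. Both levels were low, and at 24 months Clec7a was at 1.94 to 3.06 CPM and Cst7 at 0.880 to 0.968 CPM. Lgals3 overlapped in 1 library (1.83, 1.25 and 1.28 CPM against 1.70, 2.36 and 4.67 CPM), and Lyz2 overlapped at 10.3, 8.59 and 12.5 CPM against 10.9, 12 and 24.3 CPM. Spp1, often counted as an activation gene, was high in 1 library of 6 months only (15.7, 10.04 and 65.1 CPM against 8.42, 9.37 and 14.1 CPM).

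Tspo, a mitochondrial outer membrane protein of glia, was called by DESeq2 at 7.08, 4.54 and 5.60 CPM against 8.45, 8.64 and 15.5 CPM, and its log2 fold change was 0.91, or 0.57 without replicate 28 (12 months). C4b, the complement gene that marks aged glia, overlapped in 1 library (48.1, 31.5 and 35.6 CPM against 65.4, 43.8 and 105 CPM), with a log2 fold change of 0.89 ± 0.31 that was 0.51 without replicate 28. C3 was at 5.80, 6.62 and 4.06 CPM against 9.40, 6.27 and 13.7 CPM. In the interferon list, 7 of 35 were higher without overlap and 0 lower (Irf7, Irf1, Ifi27, Oas2, Mx2, Rsad2 and Lgals3bp), with a median of 0.24, which was 0.082 without replicate 28. Ifi27 was at 26.7, 24.9 and 24.2 CPM against 26.7, 27.5 and 62.4 CPM, so that 1 library carried most of its difference. In the MHC class I list, 3 of 23 were higher, and 2 of these (Calr and Pdia3) are ER genes described above, beside the peptide transporter Tap1. The median of this list was 0.16, or 0.050 without replicate 28 (12 months).

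Myelin genes leaned lower without separating the ages. Of 35 tested members 31 were negative, with a median log2 fold change of -0.19, but 0 were higher and 0 lower without overlap. Mbp, a main protein of compact myelin, was at 6012, 4169 and 6183 CPM at 6 months and at 4006, 4108 and 5593 CPM at 12 months. Mog, a protein of the outer myelin surface, was at 120, 92.5 and 122 CPM against 77.1, 84.2 and 104 CPM. Replicate 33 was the lowest at 6 months and replicate 28 the highest at 12 months in these genes, and the median of the list was -0.35 without replicate 28 and -0.081 without replicate 34. In the list of precursors and newly formed oligodendrocytes, 3 of 21 members were lower without overlap and 0 higher, with 15 negative and a median of -0.11, which was -0.046 without replicate 34 (6 months). Overlapping members were Pdgfra, a growth factor receptor of precursors, at 75.8, 72.3 and 66.5 CPM against 70.5, 73.3 and 77 CPM, and Gpr17 of newly formed oligodendrocytes at 41, 38.5 and 34.7 CPM against 33.4, 32.7 and 35.5 CPM.

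In vessels, some transporters of the blood-brain barrier were lower. The endothelial list had 5 of 31 members lower without overlap (Slco1a4, Slc7a5, Mfsd2a, Esam and Ptprb) and 1 (Kdr) higher, and without TMM scaling 3 were lower and 2 higher. Its median of -0.052 was 0.039 without replicate 34 (6 months) and between -0.17 and -0.11 without replicate 28 (12 months), 32 or 33 (both 6 months). Slco1a4, an organic anion and thyroid hormone carrier, was at 49.7, 54.5 and 62.5 CPM against 44.2, 42.3 and 43.9 CPM. The amino acid transporter Slc7a5 was at 81.7, 74.4 and 85.2 CPM against 57.8, 63 and 64 CPM, and the lipid transporter Mfsd2a at 17.1, 16.4 and 18.1 CPM against 11.8, 13.9 and 15.1 CPM. Their log2 fold changes were -0.35, -0.38 and -0.34. Cldn5, the tight junction claudin, was at 35.8, 35.7 and 46.5 CPM against 44.8, 48.9 and 60.9 CPM, a log2 fold change of 0.39 ± 0.21 with overlap. In the pericyte and smooth muscle list 4 of 21 were lower and 0 higher. Acta2, its smooth muscle actin, was highest in replicate 34: it was at 15.7, 15.3 and 34.9 CPM against 8.15, 14.8 and 20.8 CPM, a log2 fold change of -0.60 that was -0.10 without that library.

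**Figure D4:**
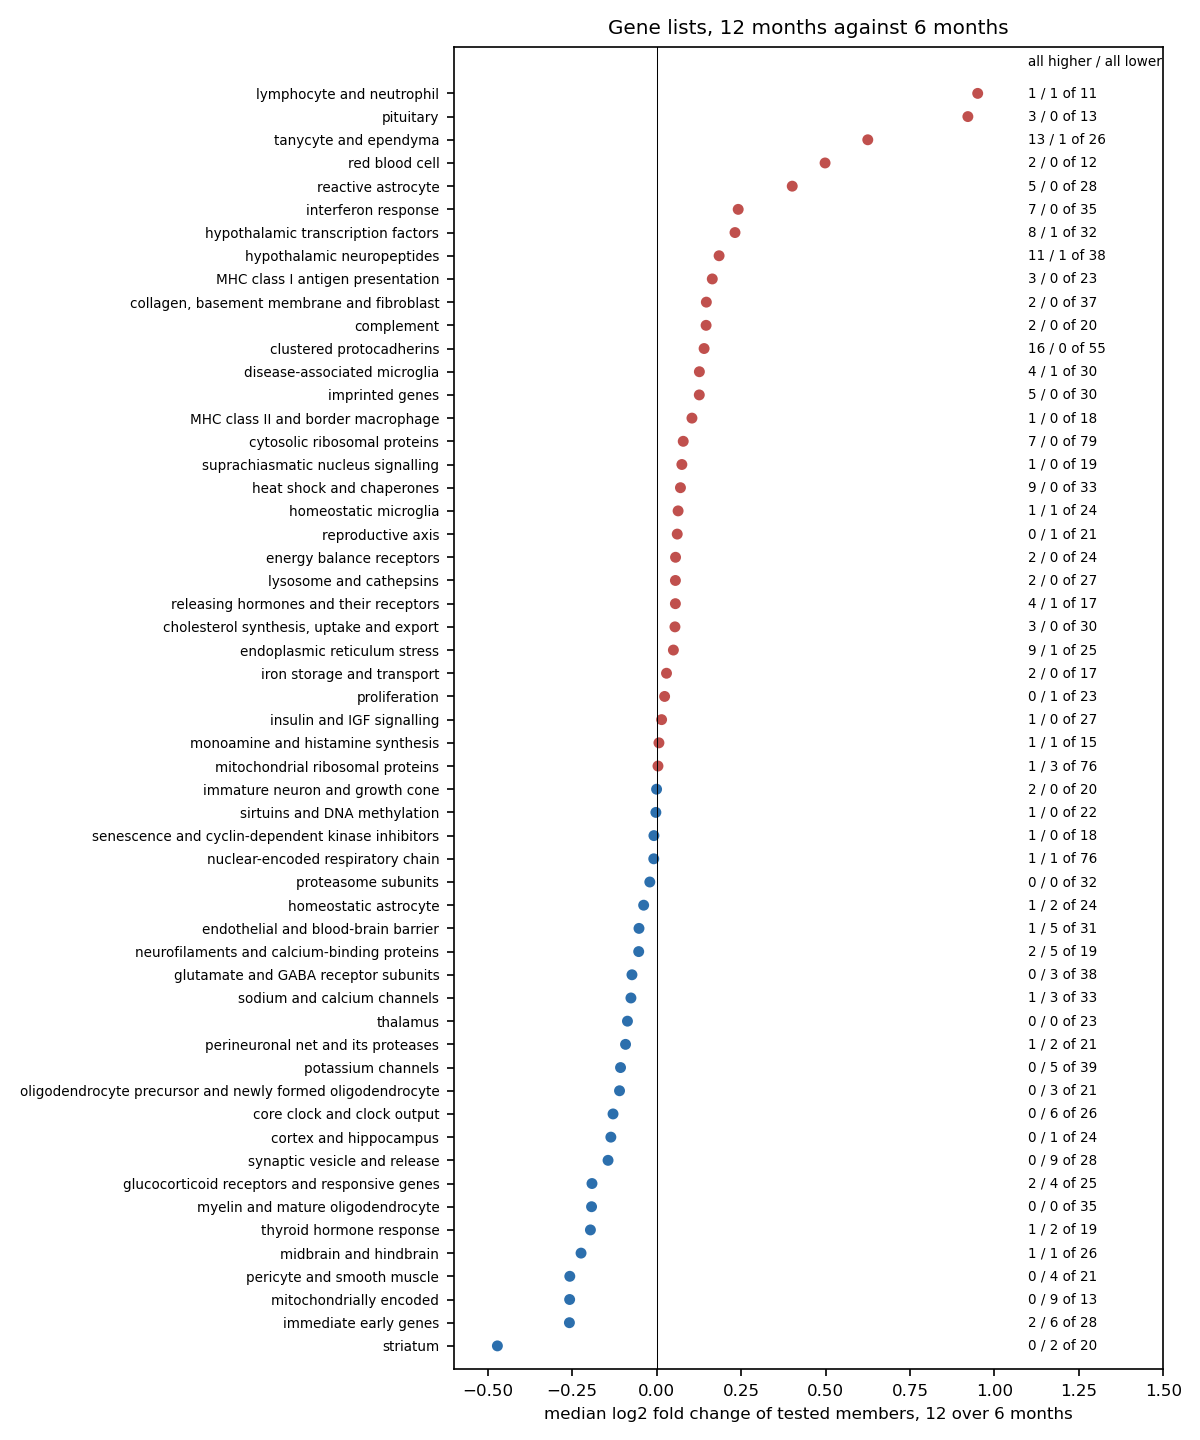
Median log2 fold change of 12 over 6 months (horizontal axis) of the tested members of the gene lists, red above and blue below 0. The lists choroid plexus (median 2.01), salivary gland, Y-linked, and non-coding and small structured RNA are not drawn. The figures at the right give the members higher and lower without overlap and the number tested, such as 13 and 1 of 26 for the tanycyte and ependyma list.

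In the cytosolic ribosomal protein list, 7 of 79 tested members were higher without overlap and 0 lower, a share close to the background of 6.9%. The median of 0.079 was -0.013 without replicate 28 (12 months), 0.033 without replicate 34 (6 months) and 0.048 without replicate 33 (6 months), and without TMM scaling 11 were higher. Rps29, called by DESeq2, was at 192, 151 and 97.8 CPM against 293, 262 and 223 CPM, a log2 fold change of 0.82 ± 0.21. Rps28 was at 71.7, 61 and 35.5 CPM against 82.1, 85 and 81.3 CPM, and Rpl38 at 156, 144 and 99.2 CPM against 177, 189 and 199 CPM. Replicate 34 was the lowest library in all 3, and without it the log2 fold changes were 0.59, 0.32 and 0.33. Genes whose longest annotated transcript is under 1000 bases made up 5.72% of all tested genes with a length, 8.21% of those higher and 3.35% of those lower without overlap. The part of transcript length in these differences was not tested. Slirp, a short mitochondrial RNA-binding gene called by DESeq2 at 5.43, 5.86 and 3.73 CPM against 9.57, 8.13 and 6.75 CPM, and Rps29 were the 2 of its 24 genes whose sign was opposite in 18 against 2 months.

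Most transcripts of the mitochondrial genome were lower. Of 13 mitochondrially encoded genes, 9 were lower without overlap and 0 higher, with a median log2 fold change of -0.26, and 7 without TMM scaling. Their summed level was 48762, 45963 and 52184 CPM at 6 months and 37164, 42193 and 44318 CPM at 12 months. ND2 of complex I was at 4587, 4647 and 5212 CPM against 3158, 3782 and 3957 CPM, and CYTB of complex III at 9077, 8254 and 9450 CPM against 6388, 7436 and 7847 CPM. COX1 of complex IV overlapped, at 17724, 16379 and 19426 CPM against 14502, 15847 and 16831 CPM. Among 76 nuclear-encoded respiratory chain genes 1 was higher and 1 lower, with a median of -0.0084, and among 32 proteasome subunits 0 and 0. Without TMM scaling these counts were 8 and 0 for the respiratory chain and 4 and 0 for the proteasome. Over all 16916 tested genes they were then 1691 and 572, so the higher shares of both lists were near that background.

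Clustered protocadherins, adhesion proteins by which neurons tell their own branches apart, were higher in 16 of 55 tested genes without overlap and lower in 0, with a median of 0.14. Pcdhga1, called by DESeq2, was at 2.98, 2.70 and 3.08 CPM against 5.23, 4.57 and 4.51 CPM, and Pcdhb8 at 2.63, 2.80 and 3.47 CPM against 3.50, 5.27 and 3.85 CPM. Genes of each gamma and alpha cluster share their last exons, so how their reads were divided between symbols is uncertain. In the imprinted list, 5 of 30 were higher without overlap (Plagl1, H19, Ndn, Nnat and Asb4) and 0 lower. Necdin (Ndn), a Prader-Willi region gene of neurons, was at 374, 402 and 397 CPM against 693, 469 and 719 CPM, and it was at 359 to 397 CPM at 18 months and 374 to 407 CPM at 24 months, so that only the 12-month libraries of the ages from 6 months stood high. Asb4, a ubiquitin ligase subunit of arcuate neurons, was at 19.7, 19.8 and 15.7 CPM against 27.3, 27.1 and 26.8 CPM.

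Most markers of senescence overlapped. In that list 1 of 18 tested members, the lysosomal enzyme Glb1, was higher and 0 lower without overlap. Cdkn1a, which encodes the cell cycle inhibitor p21, was at 10.4, 8.56 and 7.13 CPM against 7.40, 8.60 and 13.7 CPM. Cdkn2a was near the limit of counting, at 0.0250, 0.0329 and 0.0982 CPM against 0.170, 0.0774 and 0.235 CPM where 3 counts make 0.0754 to 0.122 CPM, and did not pass the filter. Among sirtuin and DNA methylation genes 1 of 22 was higher and 0 lower, and among 30 cholesterol genes 3, among them Fdps and Fdft1, were higher and 0 lower, or 7 and 0 without TMM scaling. The nuclear RNA Malat1 was at 296, 452 and 315 CPM against 668, 352 and 391 CPM, and the 7SL RNA gene Rn7s2 at 0.175, 1.78 and 0.622 CPM against 0.339, 0 and 0.157 CPM, both with overlap.

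The other genes that DESeq2 called belong to no group above. Higher without overlap were the heparan sulfatase Sulf1 (30.3, 27.6 and 26.3 CPM against 32.7, 51.1 and 79.1 CPM), the orphan receptor Gpr179 (4.23, 5.04 and 6.22 CPM against 11.5, 8.05 and 10.1 CPM) and the flavin monooxygenase Fmo1 (9.68, 8.36 and 7.69 CPM against 13.5, 11 and 14 CPM). Psme2b, a near-copy of the proteasome activator gene Psme2 whose reads may be shared with it, was at 7.35, 7.93 and 7.89 CPM against 11.7, 11.5 and 10.01 CPM. Sulf1 followed the choroid plexus order of the 12-month libraries, and its log2 fold change of 0.95 was 0.58 without replicate 28. Lower without overlap were the small GTPase Diras1 (207, 206 and 234 CPM against 170, 168 and 166 CPM), the lysophospholipid acyltransferase Lpcat4 (68.2, 69.2 and 73.5 CPM against 56.9, 57.4 and 51.9 CPM) and the kinase Pim3 (58.7, 50.0 and 56.5 CPM against 35.8, 39.1 and 46 CPM). Of all 24 genes, 22 had the same sign in 18 against 2 months, and of the 1548 genes at an unadjusted p below 0.05, 81.3% did, beside 63.6% of all tested genes. Neighbouring tissue differed in 18 against 2 months too, with list medians of 1.37 for choroid plexus and -1.35 for midbrain and hindbrain. Its part in the shared signs was not tested.

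Markers of tissue next to the hypothalamus set single libraries apart. Ttr, the transthyretin of the choroid plexus, was at 930, 33.7 and 11 CPM at 6 months and at 10.9, 1554 and 4548 CPM at 12 months, so that the lowest and the 2 highest libraries were all of 12 months. Kl, which encodes klotho, was at 31.1, 4.54 and 6.22 CPM against 4.38, 50.0 and 124 CPM. The median log2 fold change of the choroid plexus list was 2.01, with 1 of 20 members higher without overlap, and this median was 0.74 without replicate 28 (12 months) and 3.26 without replicate 32 (6 months). The striatal receptors Adora2a and Drd1 were at 26.4 and 26.1 CPM in replicate 32, and at 2.04 to 3.36 CPM and 3.83 to 6.81 CPM in the other libraries of both ages. Summed over the 20 striatal markers, replicate 32 had 1203 CPM and the other libraries 564.2 to 649.2 CPM.

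Pituitary hormone genes appeared in part of the 12-month libraries. Cga, the shared alpha subunit of the glycoprotein hormones, was at 0.0750, 0.230 and 0.0654 CPM at 6 months and at 6.14, 0.426 and 17.3 CPM at 12 months. The beta subunits Fshb and Lhb followed, Fshb at 0, 0.0658 and 0 CPM against 1.05, 0.116 and 3.14 CPM and Lhb at 0.700, 0.527 and 0.229 CPM against 1.29, 0.774 and 3.02 CPM. All 3 were higher without overlap. Red blood cell genes were high in replicate 28, with Hbb-bs, a beta globin, at 102, 90.9 and 132 CPM against 89.7, 81.4 and 277 CPM and a log2 fold change of 0.46 that was -0.34 without it. Hba-a2, whose reads are shared with a near-identical copy, was at 5.23, 4.28 and 4.02 CPM against 9.95, 5.58 and 15 CPM.

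**Figure D5:**
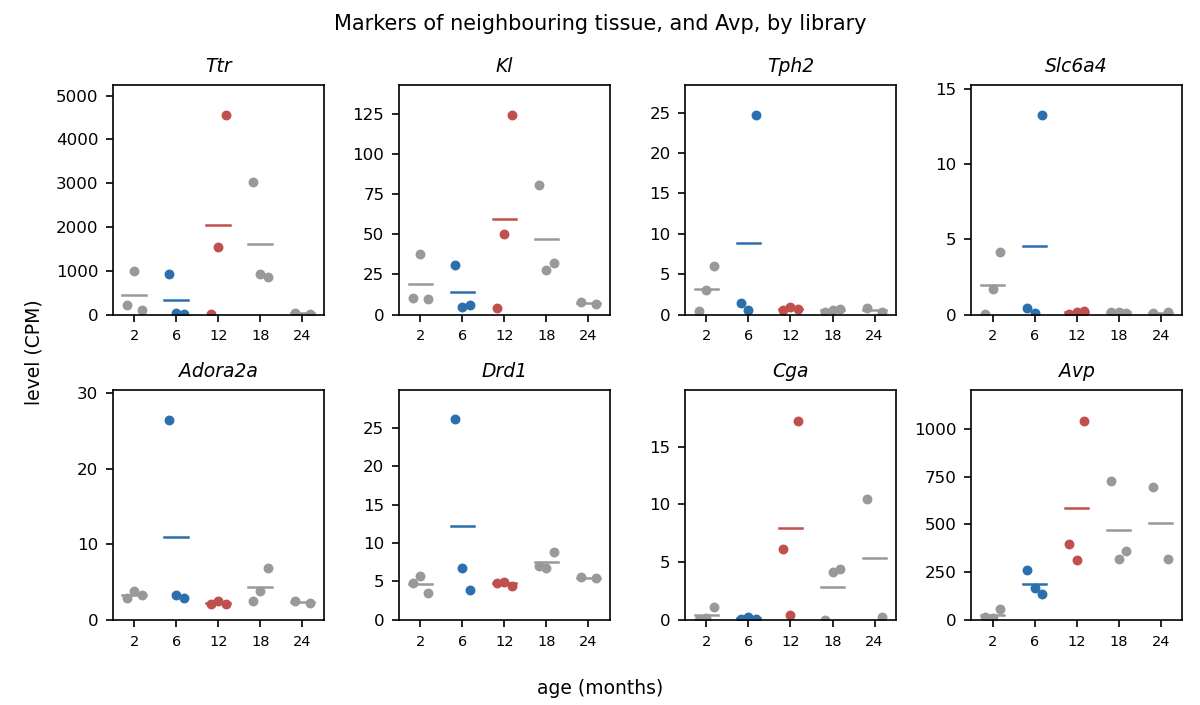
Level in CPM (vertical axes, from 0) of choroid plexus (Ttr, Kl), serotonin neuron (Tph2, Slc6a4), striatal (Adora2a, Drd1) and pituitary (Cga) markers and of Avp by age in months, 1 point per library with a bar at the mean. Single libraries set the means, such as 24.7 CPM of Tph2 in 1 library of 6 months and 4548 CPM of Ttr in 1 of 12 months.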

How the data were processed

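Paired-end RNA sequencing of total RNA was counted in 29 libraries, 3 of them at 6 and 3 at 12 months. Per the submitters' processing notes, HISAT2 2.1.0 and HTSeq 0.9.1 were used with the genome mm10 (GRCm38), and the authors deposited raw counts per gene symbol. The annotation and the strand setting were not stated in those notes or the labels, so overlapping, antisense and near-identical genes are uncertain. Lines starting with __, which name no gene and held 27.6 to 32.5% of each of the 6 totals, were dropped. Of 24499 symbols, 23688 had a position in GENCODE M21.

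Counts were filtered with filterByExpr by age (16916 genes), scaled with TMM factors (trimmed mean of M-values) and fitted with edgeR 4.0.16 (glmQLFit robust, glmQLFTest, two-sided; R 4.3.3), with 1 mean per age over 28 libraries. Replicate 5 of 24 months was left out because its 2377580 counts lay in 1385 genes, of which the 1335 with a position are on chromosomes 1 and 10. CPM values were computed here from the deposited counts and the TMM-scaled library sizes. Errors after ± are SE. Calls are at a Benjamini-Hochberg adjusted p below 0.05, and the script was tested on simulated data. DESeq2 1.42.0 was an alternative. The 59 gene lists (1531 genes, 1467 tested) and the named genes were chosen with earlier results of these data known. By rule, the 12 highest and 12 lowest called genes and up to 4 called members per list were to be named, which gave none, and a fixed panel was given whatever its result, apart from items that are not reported here. The other named genes, including those DESeq2 called, were chosen after their values were seen. No set test was run.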

Additional observations from a re-analysis of the deposited data

How the results depend on the processing

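edgeR called 0 genes under every alternative run with it, and DESeq2 called 24, of which 2 (Tph2 and Dnajb13) differed at least 2-fold; the cause of the gap between the tools was not tested. With 1 of the 6 libraries left out, edgeR called 0 and 0 at least 2-fold. At an unadjusted p below 0.05, the fit with all 29 libraries gave 60 genes higher and 23 lower, and the fit of the 6 libraries alone 705 higher and 391 lower. Chosen after seeing the data, library sizes without TMM gave 1270 higher and 391 lower, a share of 76.5% higher in place of 57.9%, and 1691 higher and 572 lower without overlap. Without replicate 28 (12 months) 46.8% were higher. With 1 library left out the counts ran from 586 to 1099 higher and from 497 to 831 lower. DESeq2 calls, also examined after seeing the data, ran from 6 to 39 with 1 library left out, and were 47 on the 6 libraries alone. All 24 genes called by DESeq2 kept their direction under the 15 alternatives. This was largely fixed in advance: the DESeq2 fit that chose them is 1 of the 15, and the others drew on the same libraries. Sizes did change, as for Tph2, at a log2 fold change of -0.43 without replicate 34 (6 months) in place of -3.56. Without TMM, directions turned for small differences: Crh was at a log2 fold change of 0.0025, Kiss1 at 0.012 and Atf4 at 0.024. With 1 library left out, larger differences turned too, among them Gfap at 0.70 and Hbb-bs at 0.46 in the main fit. Gfap then ran from -0.070 to 1.03, Hbb-bs from -0.34 to 0.76 and Gnrh1 from -0.11 to 0.81. Npy ran from -0.27 to 0.36, Crh from -0.29 to 0.23, Sst from -0.38 to 0.017 and Kiss1 from -0.27 to 0.27. Pdgfra ran from -0.0096 to 0.085, Cdkn1a from -0.13 to 0.35, Creld2 from -0.013 to 0.20 and Atf4 from -0.053 to 0.036. No paired analysis was possible because the replicate numbers of 6 and 12 months (32 to 34 and 26 to 28) are not shared. Depth limits genes near 3 counts per library, such as Cdkn2a, and 2 or 3 libraries per age limit every adjusted p.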
